A study of Mus musculus with 6 samples.

Results

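The Notch pathway genes described here were 10 genes chosen by name: the ligands Jag1 and Jag2, the receptors Notch1, Notch2 and Notch3, the coactivators Maml1, Maml2 and Maml3, and the target genes Hes1 and Hey1. Each was found once among the 43548 genes of the expression table. Expression was measured by mRNA sequencing in Met-1 TripZ-200c cells, with 3 libraries per group. Met-1 is a mouse mammary carcinoma line from a late tumor of an FVB mouse carrying the polyoma middle T oncogene under the MMTV promoter. TripZ-200c is a lentiviral vector that makes the precursor of miR-200c and a red fluorescent protein when doxycycline (Dox) is present. All libraries of both groups came from a single clone of transduced cells, sorted to have no fluorescence without Dox and an intermediate level with it. The cells of the Dox group received 1 µg/mL Dox for 48 h, and those of the no Dox group received vehicle (water) for the same time. The cultures were plated in triplicate from that clone, so p-values measure the spread between cultures of 1 clone. Cells with the empty vector were not analysed here, so an action of Dox itself and the induction of miR-200c cannot be told apart.

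Notch signaling runs between touching cells. A ligand of the Jagged or Delta-like family on one cell pulls on a Notch receptor of its neighbour, ADAM proteases and gamma-secretase then cut the receptor, and the freed intracellular domain joins the DNA-binding protein RBPJ and a Mastermind-like (MAML) coactivator in the nucleus to switch on genes such as Hes1 and Hey1. In mammary epithelium the pathway takes part in the choice of cell fate, and it is often active in mammary carcinoma. Jag1, Maml2 and Maml3 have been reported as targets of the miR-200 family, which is known for repressing Zeb1 and Zeb2 and so keeping cells epithelial.

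A microRNA finds an mRNA mainly through its seed, bases 2 to 8 from the 5′ end, which pairs with a complementary stretch in the 3′ untranslated region (3′ UTR). The family holds 2 seeds that differ in 1 base. miR-200c shares its seed with miR-200b and miR-429, and miR-141 shares the other with miR-200a. The mature sequences of miR-200c (chr6:124718324-124718346, minus strand) and miR-141 (chr6:124717917-124717938, minus strand) are from RefSeq on GRCm38.p6 and show the seed in capitals.
mmu-miR-200c-3p: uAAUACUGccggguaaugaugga
mmu-miR-141-3p: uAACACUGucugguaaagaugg

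The longest annotated 3′ UTR of each gene (GENCODE, GRCm38) was searched on its own strand for CAGTATT, which pairs with bases 2 to 8 of miR-200c, and for CAGTATTA, the same 7 bases followed by an A. Of the 10 Notch pathway genes, only Jag2 held such a match, and this count was the same when all annotated 3′ UTRs of each gene were searched. The 6-base match AGTATT, which pairs with bases 2 to 7 and was added after the values were seen, stood in 6 of the 10 (Jag1, Jag2, Notch1, Maml2, Maml3 and Hey1). Of the 10793 genes with a 3′ UTR among those compared below, 63.2% held no match of 6 or more bases. Their median 3′ UTR was 771 bases long, beside 1201 over all 10793. Maml2 also held CAGTATT once upstream of its 3′ UTR. The windows below show the match in capitals for the genes on which the results turn, and the match of 2 other pathway genes that fell with Dox, Dtx2 and Efnb2. They lie at chr2:137081746-137081769 (minus strand, Jag1), chr12:112907989-112908013 (minus, Jag2), chr2:26459371-26459394 (minus, Notch1), chr9:13708146-13708169 (plus, Maml2), chr3:51687599-51687622 (minus, Maml3), chr5:136032673-136032697 (plus, Dtx2) and chr8:8617618-8617643 (minus, Efnb2).
Jag1, 6 bases: ctactgcatttagggAGTATTctc
Jag2, 7 bases: ctcccgggacggcggCAGTATTgaa
Notch1, 6 bases: tccatttttttttttAGTATTtat
Maml2, 6 bases: atatcactggcccagAGTATTttc
Maml3, 6 bases: gtttgtttaaaatagAGTATTttt
Dtx2, 7 bases: aatgggcaccctcctCAGTATTgta
Efnb2, 8 bases: aatttgtaagtaacaCAGTATTAtgc

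The miR-141 seed was matched more often than that of miR-200c. CAGTGTT, which pairs with its bases 2 to 8, stood once in the 3′ UTRs of Notch1 and Notch2 and 2 times each in those of Maml1 and Maml2. The other 7-base match, AGTGTTA, pairs with bases 2 to 7 and ends in an A. It stood in the 3′ UTRs of Jag1, Maml1 and Maml2. The windows of Notch1 (chr2:26458843-26458867, minus strand) and of the Maml1 match that continues into an A (chr11:50256547-50256572, minus strand) are shown because Notch1 fell with Dox, whereas Maml1, which holds the longest match, had no change that passed the test.
Notch1, 7 bases: tgagtctgcaggctcCAGTGTTctg
Maml1, 8 bases: tcctggaacttcgtcCAGTGTTAaga

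**Figure D1:**
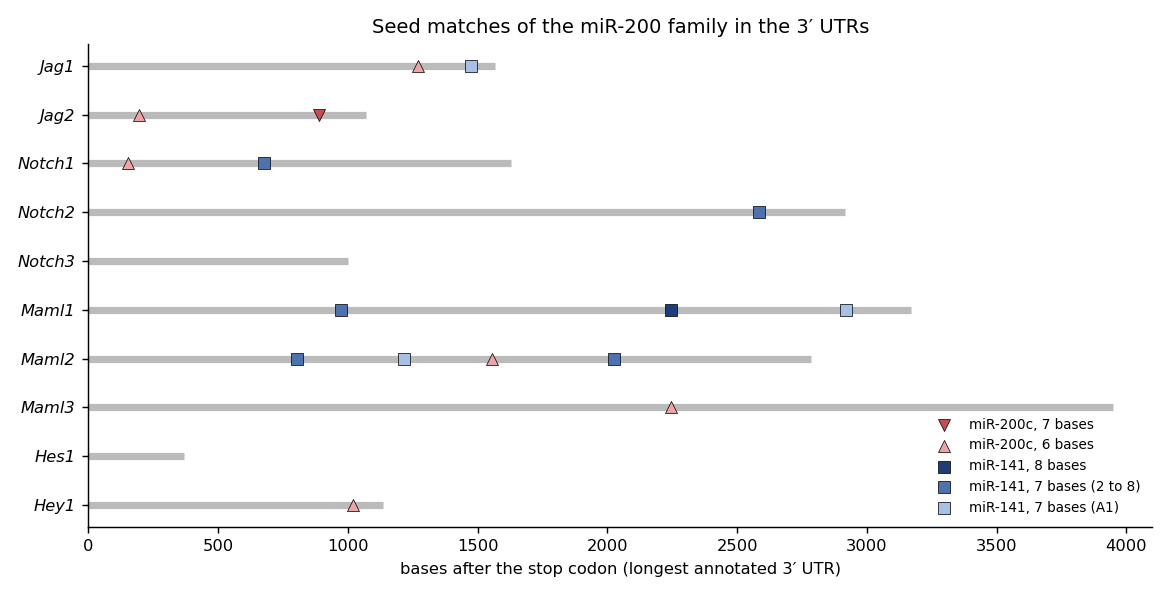
Seed matches of miR-200c (triangles) and miR-141 (squares) along the longest annotated 3′ UTR of each of the 10 genes. The x axis is the distance in bases after the stop codon, a grey bar is the length of the 3′ UTR, and A1 marks a match to bases 2 to 7 followed by an A. The only 7-base match of miR-200c lies 891 bases after the stop codon of Jag2.

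Expression is given as FPKM, the fragments on a gene scaled to the length of the gene and to the number of reads mapped in that library. Sums of FPKM ran from 800267 to 815139 per library and 16867 to 18012 genes were above 0. The number of reads is unknown, but the worth of 1 read at the lowest values put the depth of the libraries at 0.92 to 1.49 times that of the first library without Dox. This estimate is rough, as only 14.2 to 24.0% of the low genes in the other libraries lay at the ratio used. The precursor gene Mir200c was listed at 0 in all 6 libraries, which do not measure the mature microRNA, so its known targets were read in its place. Zeb1 fell from 41.8 ± 0.682 to 21.2 ± 2.05 FPKM and Zeb2 from 29.3 ± 1.43 to 8.29 ± 0.661 FPKM (SD, n = 3 each). Their adjusted p-values were 3.62e-04 and 4.48e-05 (limma on log2(FPKM + 0.1), Benjamini-Hochberg over 12879 genes). Of 4 epithelial markers, Krt18 and Epcam rose, Cdh1 rose in a fit that also took in genes averaging under 1 FPKM, and Krt8 did not pass. Their summed FPKM was 91.6 to 97.0 without Dox and 369 to 406 with Dox, nearly all of it Krt18. Epcam and Cdh1 averaged 0.128 and 0.0585 FPKM without Dox and 4.06 and 0.83 FPKM with Dox. The 5 immune markers summed to 6.40 to 11.4 and 6.85 to 7.63 FPKM, nearly all of it Cd68 with Cd3e at 0, and the 4 endothelial markers to 4.47 to 5.12 and 4.19 to 4.59 FPKM, nearly all of it Cdh5. The part of these markers in the results was not tested.

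Among the 10 genes, Notch1 and Maml3 fell with Dox and none rose. Notch1 was 2.63-fold lower and Maml3 1.38-fold lower. The comparison took in each gene whose FPKM averaged 1 or more, and a gene passed when its limma p-value, adjusted over all 12879 such genes, was under 0.05. Of the 10 genes, 7 were above this level, and Jag2, Notch3 and Hey1 were below it. The 2 genes that fell are 28.6% of the 7, where 15.0% of all genes tested passed in either direction, 7.97% of them lower and 7.06% higher with Dox. In 4 of the 7 (Jag1, Notch1, Notch2 and Maml3) the 3 values with Dox lay all on one side of the 3 without Dox, a separation found in 35.0% of all genes. At an unadjusted limma p under 0.05 the same 4 genes would count, with Jag1, Notch1 and Maml3 lower and Notch2 higher. The median log2 fold change of the 7 was -0.04, beside 0.0039 over all genes tested. In such bulk samples, fewer cells that express a gene and less RNA of it per cell cannot be told apart.

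**Figure D2:**
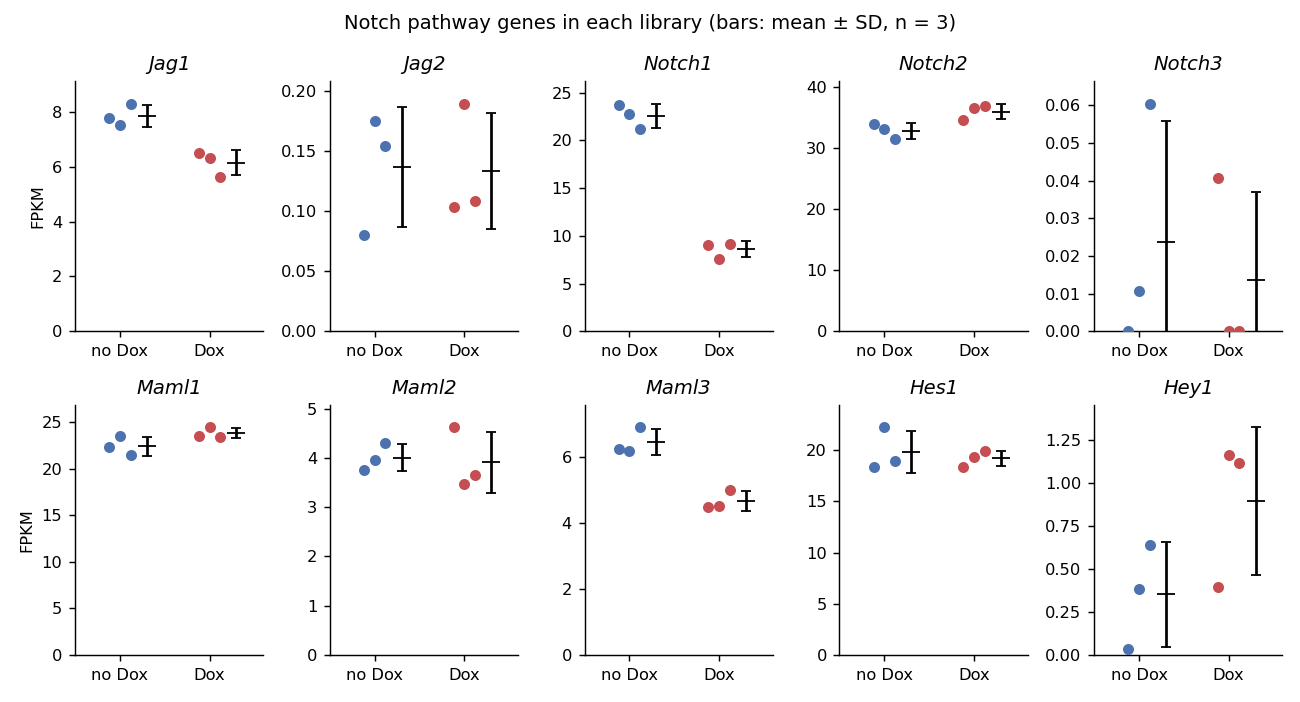
FPKM of each of the 10 Notch pathway genes in the 3 no Dox (blue) and 3 Dox (red) libraries, each panel on its own linear axis from 0. Points are libraries and black bars are the mean ± SD (n = 3). The groups lie apart for Jag1, Notch1, Notch2 and Maml3, and Jag2, Notch3 and Hey1 average under 1 FPKM.

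Receptors are the members through which a cell hears its neighbours, and here they did not move together. Notch1 (ENSMUSG00000026923, chr2:26457903-26516663, minus strand, GRCm38) is the founding receptor of the mammalian family. It was at 23.7, 22.8 and 21.2 FPKM in the 3 libraries without Dox and at 9.06, 7.60 and 9.11 FPKM in the 3 with Dox. Every library with Dox lay far below every library without it. The mean fell from 22.6 ± 1.27 to 8.59 ± 0.859 FPKM (SD, n = 3 each), a log2 fold change of -1.39 (SE 0.0932, 95% confidence interval -1.61 to -1.17, adjusted p = 2.16e-04 by limma). Counted from the lowest, this log2 fold change stood in place 56 among the 12879 genes tested. Its adjusted p was under the threshold in all 15 alternative settings and 0.00866 at the highest, by limma or by a linear model without moderation. Of the longest Notch1 transcript, 14.6% is shared with other genes, mainly with 0610009E02Rik on the opposite strand, which was at 0.0985 to 1.98 FPKM.

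Notch2 (ENSMUSG00000027878, chr3:98013527-98150361, plus strand), a receptor with nearly the same domains as Notch1, was the most abundant of the 10 genes in both groups. It was at 33.9, 33.1 and 31.5 FPKM in the no Dox libraries and at 34.6, 36.6 and 36.9 FPKM in the Dox libraries. The groups did not overlap, with Dox on the higher side. The log2 fold change was 0.13 (SE 0.0529, 95% confidence interval 0.01 to 0.26), and it did not pass after adjustment (adjusted p = 0.146 by limma). The interval of Notch2 lies wholly above that of Notch1, although the difference between the receptors was not itself tested.

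Notch3 (ENSMUSG00000038146, chr17:32120820-32166852, minus strand), a receptor best known from vascular smooth muscle, was close to absent. It was listed at 0, 0.0108 and 0.0604 FPKM in the no Dox libraries and at 0.0406, 0 and 0 FPKM in the Dox libraries. Values this low rest on very few reads and differ within each group as much as between the groups. Fitted without the filter over 20513 genes, of which 7.84% passed, none of Notch3, Jag2 and Hey1 did by limma, nor at an unadjusted p under 0.05, and the adjusted p of Notch3 was 0.843 by limma.

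Ligands make a cell a sender of the signal. Jag1 (ENSMUSG00000027276, chr2:137081456-137116644, minus strand), the Jagged ligand most often linked to breast cancer, was at 7.78, 7.53 and 8.31 FPKM without Dox. With Dox it was at 6.50, 6.34 and 5.65 FPKM. All values with Dox lay below all values without it, yet the change missed the threshold. Its mean was 7.87 ± 0.402 FPKM without and 6.16 ± 0.451 FPKM with Dox (SD, n = 3 each), with a log2 fold change of -0.35 (SE 0.0987, 95% confidence interval -0.58 to -0.12, adjusted p = 0.0571 by limma). The adjusted p was under the threshold in 1 of 15 alternative settings, limma without a trend of variance on expression (0.0380), and reached 0.161 at the highest.

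Jag2 (ENSMUSG00000002799, chr12:112907819-112929776, minus strand), the second Jagged ligand and the only one of the 10 genes with a 7-base match of miR-200c, was barely expressed. It was at 0.0804, 0.176 and 0.154 FPKM in the no Dox libraries and at 0.104, 0.190 and 0.108 FPKM in the Dox libraries. The groups overlapped throughout. Its log2 fold change without the filter was -0.01 with a 95% confidence interval of -0.72 to 0.70 (adjusted p = 0.989 by limma). At this level the 0.1 added to each FPKM makes fold changes too small. Changes of Jag2 larger than the interval spans were therefore not excluded.

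MAML proteins bridge the Notch intracellular domain and RBPJ to histone acetyltransferases. Maml1 (ENSMUSG00000050567, chr11:50255634-50292311, minus strand), the most abundant of the 3, was at 22.3, 23.5 and 21.4 FPKM in the no Dox libraries and at 23.6, 24.4 and 23.5 FPKM in the Dox libraries. The ranges met, and the log2 fold change of 0.09 (SE 0.0573, 95% confidence interval -0.05 to 0.22) did not pass (adjusted p = 0.372 by limma). Maml2 (ENSMUSG00000031925, chr9:13297957-13709388, plus strand), known also from gene fusions in salivary tumors, was at 3.76, 3.95 and 4.30 FPKM in the no Dox libraries and at 4.62, 3.46 and 3.64 FPKM in the Dox libraries. The first library with Dox was the highest of all 6 and the other two were the lowest, so the groups overlapped. The log2 fold change of Maml2 was -0.04 (SE 0.154, 95% confidence interval -0.41 to 0.32, adjusted p = 0.885 by limma).

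Maml3 (ENSMUSG00000061143, chr3:51685907-52105076, minus strand) was the coactivator that fell. It was at 6.25, 6.17 and 6.89 FPKM in the no Dox libraries and at 4.49, 4.50 and 5.002 FPKM in the Dox libraries, and the groups lay clearly apart. The mean went from 6.43 ± 0.395 to 4.66 ± 0.293 FPKM (SD, n = 3 each), a log2 fold change of -0.46 (SE 0.108, 95% confidence interval -0.71 to -0.20, adjusted p = 0.0318 by limma). This call was close to the threshold: it remained in 7 of 15 alternative settings, and the adjusted p by limma was 0.0603 without the filter on low values and 0.0683 when the replicate number entered as a block. Leaving out any 1 of the 6 libraries gave a log2 fold change of -0.51 to -0.41, with adjusted p-values by limma from 0.0603 without the third library with Dox to 0.0983 without the second.

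Target genes report on the output of the pathway. Hes1 (ENSMUSG00000022528, chr16:30064384-30067796, plus strand), a transcriptional repressor, was at 18.4, 22.2 and 18.9 FPKM in the no Dox libraries and at 18.4, 19.3 and 19.9 FPKM in the Dox libraries. The 3 values with Dox lay within the range of those without it. Its log2 fold change was -0.04 (SE 0.0853, 95% confidence interval -0.24 to 0.16, adjusted p = 0.792 by limma). Hey1 (ENSMUSG00000040289, chr3:8663359-8667256, minus strand), a related repressor, was at 0.0350, 0.382 and 0.640 FPKM in the no Dox libraries and at 0.397, 1.16 and 1.12 FPKM in the Dox libraries. The lowest value with Dox lay among those without it, and the libraries without Dox differed widely. The log2 fold change of Hey1, fitted without the filter, was 1.33 with a 95% confidence interval of -0.47 to 3.13 (adjusted p = 0.391 by limma). It was 0.61 without the first library without Dox and 0.48 with a pseudocount of 1.

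**Figure D3:**
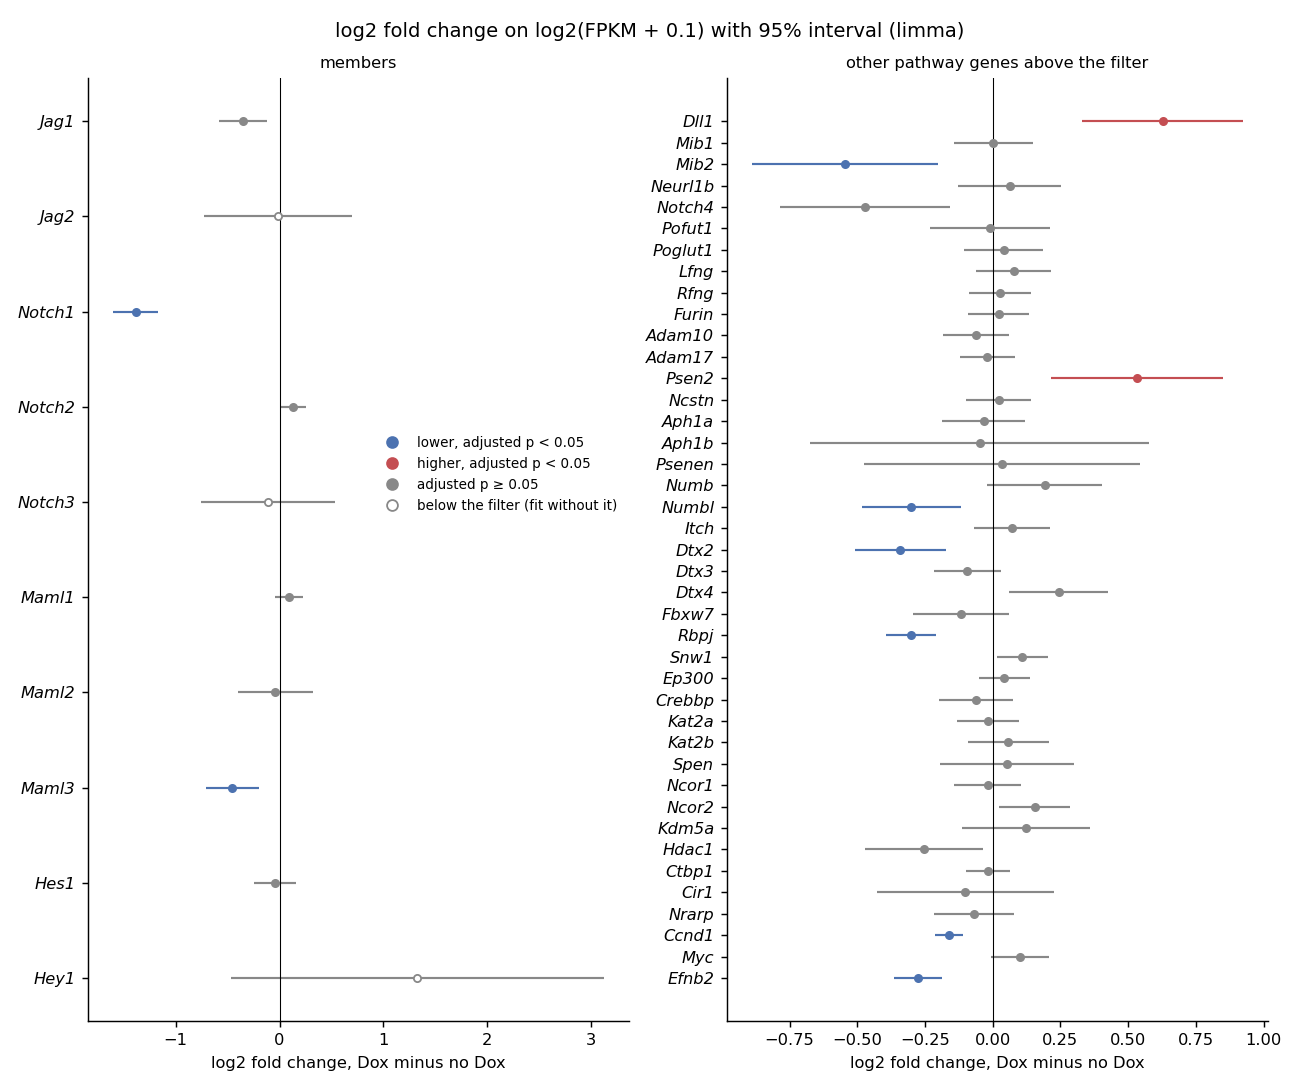
Log2 fold change (Dox minus no Dox) on the scale of log2(FPKM + 0.1) with its 95% confidence interval from limma, for the 10 genes (left) and 41 of the other pathway genes above the filter (right, on a narrower axis). Blue is lower and red higher with Dox at an adjusted p under 0.05, grey is not past it, and open circles are genes below the filter. On the left Notch1 (-1.39) and Maml3 (-0.46) are blue, and on the right 6 genes are blue and 2 are red.

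Ranked by mean FPKM, which is per length and so comparable between genes, the order without Dox was Notch2, Notch1, Maml1, Hes1, Jag1, Maml3, Maml2, Hey1, Jag2 and Notch3. There the ranges of Notch1 and Maml1, of Maml1 and Hes1, and of Hey1 and Jag2 overlapped, and the other neighbours in the order lay apart. With Dox the order was Notch2, Maml1, Hes1, Notch1, Jag1, Maml3, Maml2, Hey1, Jag2 and Notch3, and only Maml3 and Maml2 overlapped. Notch1 thus went from level with Maml1 and above Hes1 on average to below both.

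The rest of the pathway was followed in 52 further genes, of which 42 were above the filter. Of these 42, 2 rose and 6 fell, 19.0% in all beside the 15.0% of all genes tested, and 16 (38.1%, beside the 35.0% of all genes) had groups that did not overlap. Their median log2 fold change was -0.005. The one other ligand above the filter, Dll1, a Delta-like ligand, rose from 10.0 ± 1.55 to 15.5 ± 1.46 FPKM (SD, n = 3 each, log2 fold change 0.63, SE 0.126, adjusted p = 0.0179 by limma). It was at 8.90, 11.8 and 9.36 FPKM in the no Dox libraries and at 16.3, 16.3 and 13.8 FPKM in the Dox libraries, so the ligands Dll1 and Jag1 lay apart between the groups in opposite directions. Dll3 and Dll4 were at or below 0.191 FPKM in every library.

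Among genes that prepare ligands and receptors or turn receptors over, 4 of 23 tested passed (17.4%, near the 15.0% of all genes tested). Mib2, a ubiquitin ligase that helps ligands to be taken up by the sending cell, fell with a log2 fold change of -0.55 (adjusted p = 0.0481 by limma), and its relatives Mib1 and Neurl1b did not pass. None of the 4 genes tested for receptor glycosylation passed by limma, nor at an unadjusted p under 0.05, and Mfng was listed at 0 in all libraries. Of 9 tested genes for receptor cleavage, 1 passed: Psen2, a catalytic subunit of gamma-secretase, rose from 4.68 ± 0.632 to 6.78 ± 0.532 FPKM (SD, n = 3 each, adjusted p = 0.0405 by limma). Of 7 tested genes for receptor turnover, 2 fell, Numbl (log2 fold change -0.30, adjusted p = 0.0427 by limma) and Dtx2 (-0.34, adjusted p = 0.0211). Numbl is a relative of the Notch inhibitor Numb, and Dtx2 is a Deltex ubiquitin ligase. Mib2, Psen2, Numbl, Dtx2 and Dll1 remained past the threshold in 6, 6, 7, 9 and 10 of 15 alternative settings.

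In the nucleus, 1 of 13 tested genes of the Notch complex passed (7.69%, beside the 15.0% of all genes tested). It was Rbpj, the DNA-binding partner of every Notch receptor. Rbpj was at 54.3, 55.1 and 56.1 FPKM in the no Dox libraries and at 44.4, 44.5 and 45.2 FPKM in the Dox libraries. The spread within each group was small beside the gap between them. Its mean fell from 55.2 ± 0.884 to 44.7 ± 0.428 FPKM (SD, n = 3 each), a log2 fold change of -0.30 (SE 0.0389, adjusted p = 0.00325 by limma) that passed in all 15 alternative settings.

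Of 4 other known Notch targets tested, 2 fell, where 7.97% of all genes tested were lower, and a list of 4 is too short to read a share from. Ccnd1, the gene of cyclin D1, fell from 1175 ± 18.9 to 1050 ± 3.29 FPKM (SD, n = 3 each, log2 fold change -0.16, adjusted p = 0.00406 by limma) and passed in 14 of 15 alternative settings. Efnb2, an ephrin ligand of endothelial and epithelial cells, fell from 54.0 ± 0.466 to 44.6 ± 0.295 FPKM (SD, n = 3 each, log2 fold change -0.28, adjusted p = 0.00414 by limma) and passed in all 15. The other two, named after their values were seen, did not pass: Nrarp, a feedback inhibitor, was at 37.9 ± 2.77 and 36.0 ± 0.585 FPKM, and Myc was at 117.9 ± 1.11 and 126.7 ± 6.79 FPKM (SD, n = 3 each). Hes5 was listed at 0 in all 6 libraries, and Hes7, Hey2 and Heyl were below the filter.

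The share of each gene in the mRNA of its role was compared between the groups, with no share past a threshold. Summed over Notch1 to Notch4, receptor mRNA was 68.0 ± 1.26 FPKM without Dox and 53.7 ± 0.866 FPKM with Dox (SD, n = 3 each). Notch1 made up 34.2, 33.8 and 31.6% of the receptor sum without Dox and 17.2, 14.0 and 16.9% with Dox, whereas Notch2 went from 48.3 ± 1.27 to 67.1 ± 1.53% (SD, n = 3 each). Notch4, a receptor known from vessels and from mammary tumors caused by viral insertion, was at 12.6 ± 1.63 FPKM without and 9.04 ± 1.23 FPKM with Dox (SD, n = 3 each, adjusted p = 0.0568 by limma). Its share of the receptor sum was 18.5 ± 2.60% and 16.8 ± 2.20% (SD, n = 3 each). Ligand mRNA summed to 18.1 ± 1.46 FPKM without and 21.8 ± 1.88 FPKM with Dox (SD, n = 3 each), and Jag1 went from 46.4, 38.3 and 46.6% of it to 28.3, 27.8 and 28.8%. The share of Dll1 went from 55.1 ± 4.14 to 70.8 ± 0.611% (SD, n = 3 each).

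MAML mRNA summed to nearly the same level in both groups, 32.9 ± 0.680 and 32.4 ± 0.281 FPKM (SD, n = 3 each). Within it, Maml3 went from 19.6 ± 1.41 to 14.4 ± 1.02%, Maml1 from 68.2 ± 2.22 to 73.5 ± 1.71%, and Maml2 from 12.2 ± 0.862 to 12.1 ± 1.83% (SD, n = 3 each). Each of 8 shares was compared by an exact two-sided permutation test over the libraries. In 6 of them the groups did not overlap and p was 0.1, the smallest that 3 libraries against 3 can give, or 0.133 after Benjamini-Hochberg adjustment. For Notch4 and Maml2 the exact permutation p was 0.6 and 0.9. The design cannot reach a p under 0.05 for a share, and shares within a role add up to 100% and so move against each other.

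**Figure D4:**
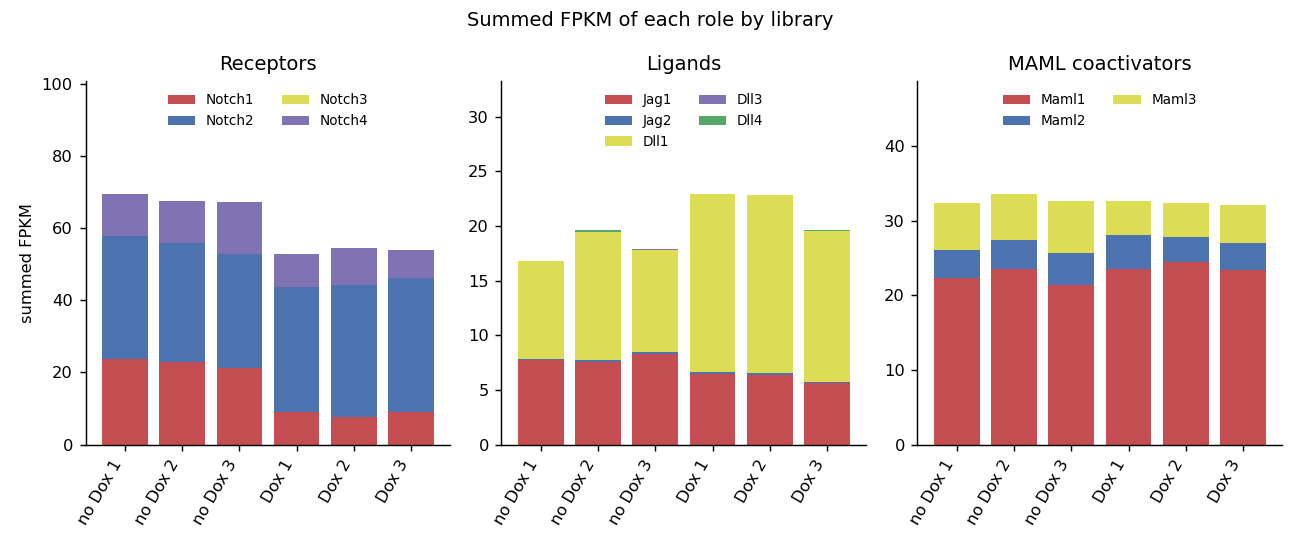
Stacked bars of the FPKM of the receptors, ligands and MAML coactivators in each of the 6 libraries, on linear axes from 0 that differ between panels. With Dox the Notch1 segment shrinks from 21.2 or more to 9.11 FPKM or less, the Dll1 segment of the ligands grows, and the MAML total stays between 32.1 and 33.6 FPKM.

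Seed matches were set beside the response of all genes as a background. Of the 12879 genes tested, 10793 had an annotated 3′ UTR (83.8%). Among the 1738 genes (16.1%) with at least 1 match of CAGTATT, 17.3% were lower with Dox. Among the 433 with the match followed by an A it was 28.6%, beside 7.32% of the 9055 genes without CAGTATT. The median log2 fold changes of these classes were -0.05, -0.12 and 0.01. The median lengths of their 3′ UTRs were 2524, 2587 and 1007 bases, so these classes differ in length as well as in the match. The part of length was not tested. Genes with no more than the 6-base match, the class of Jag1, Notch1, Maml2 and Maml3, numbered 1677, of which 7.69% were lower and 7.69% higher with Dox, with a median of 0.02.

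Of the 8 genes of the pathway that fell, 6 (75.0%) held no CAGTATT, near the 68.8% of all lower genes with a 3′ UTR that held none. These were Notch1, Maml3, Rbpj, Ccnd1, Mib2 and Numbl, whereas Dtx2 held 1 match of 7 bases and Efnb2 1 of 8 bases. Zeb1 and Zeb2 held CAGTATT 5 times each. The miR-141 match CAGTGTT without CAGTATT stood in 1602 genes, of which 6.49% were lower, beside 7.5% of the 7453 genes with neither. Notch1, Numbl and Ccnd1, 3 of the 8 that fell, held CAGTGTT and no CAGTATT (37.5%, beside 10.8% of all lower genes with a 3′ UTR). So did Notch2, Maml1 and Maml2, which did not pass. A list of 8 genes is too short to read a share from. The vector makes the precursor of miR-200c, and mature miR-141 was not measured. A match describes letters in the sequence and not binding.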

How the data were processed

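The members and gene lists were chosen with earlier results of these data known. RNA of 3 no Dox and 3 Dox cultures was sequenced as single reads from a stranded kit. The authors mapped reads to the mouse genome (GRCm38.p6; an FVB assembly is also named) with gSNAP and deposited, gene by gene and library by library, FPKM values estimated with Cufflinks (versions not given in the sources used here). Whether counting used strand is not stated. The group means, fold changes, p-values and q-values in the same table hold the authors' own comparison and were not used. The table had 43611 rows; 63 rows of repeated identifiers were dropped (keeping the one of highest mean), and a placeholder in 6 values of 4 genes, none of them reported here, was treated as missing. All per-sample columns were used.

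Genes averaging 1 FPKM or more were fitted in limma 3.58.1 (R 4.3.3; lmFit, eBayes with trend) as log2(FPKM + 0.1), with group as the only term and Benjamini-Hochberg adjustment over all genes. Members below 1 FPKM were taken from the same fit without the filter (genes above 0 in at least 1 library). This scale makes fold changes of low genes too small. Named genes were all members, the listed pathway genes that passed, and Zeb1, Zeb2 and Mir200c. Of the listed pathway genes, 1 is counted but not reported here by name. In simulated data with 200 of 12875 genes changed by 1 log2 unit, 77% were recovered and 4.35% of calls were unchanged genes. That change is larger than those of Jag1, Maml3 and Rbpj, so the share recovered does not apply to changes of their size. Alternatives were pseudocounts of 1 and 0.01, no filter, a filter at 5 FPKM, median scaling, quantile normalization, limma with no trend, an unmoderated linear model per gene on log2(FPKM + 1), the replicate number as a block, and leaving out each library. Relative depth was read from ratios of FPKM values under 0.1. Shared sequence was found with BLAST 2.17.0 against all annotated transcripts, and the other steps used Python 3.11.15 with pandas 2.3.3, numpy 2.4.6 and matplotlib 3.10.9.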

Additional observations from a re-analysis of the deposited data

How the results depend on the processing

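The decrease of Notch1 kept its side of the threshold in all 15 settings, as did those of Rbpj and Efnb2. The count of 2 members that passed went to 1 without the filter, with the replicate block and on leaving out any library (1 to 1). For the other pathway genes the count of 8 went to 5 without the filter, 4 with the unmoderated model, 5 with the replicate block and 3 to 5 on leaving out 1 library. Over all genes the count of 1935 went to 1290 with the unmoderated model, 1337 with the replicate block and 1069 to 1384 on leaving out 1 library. Deviations of same-numbered libraries correlated at 0.0287, 0.0359 and -0.00759 across genes, beside -0.0511 to 0.0235 for libraries of different numbers. The values show no clear pairing by replicate number, and the labels do not say whether cultures were paired. With 1 library left out, the sign turned for members that had not passed: Jag2 ran from -0.197 to 0.108, Notch3 from -0.276 to 0.0901, Maml2 from -0.166 to 0.0365 and Hes1 from -0.0947 to 0.0422 on the log2 scale. Counting 6-base matches of miR-200c raised the number of members with a match from 1 to 6 of 10. The 3′ UTRs of these 6 are 1070 to 3947 bases long. Of all tested genes with a 3′ UTR, 63.2% held no match of 6 or more bases. The median 3′ UTR of those without a match was 771 bases, beside 1201 over all, and the part of length was not tested. No scaling moved the median over all genes by more than 0.1 on the log2 scale. The causes of these shifts between settings were not tested. FPKM holds no read counts, so the counting error behind the low values of Jag2, Notch3 and Hey1 could not be given, and their intervals rest on the spread between libraries.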
